A study of Sus scrofa with 10 samples.

Results

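The genes described here take up and oxidise fatty acids in muscle. They were chosen by name, not by a measured value: CD36, LPL and FABP3 for uptake, CPT1B and CPT2 for the carnitine shuttle, ACADVL, ACADM, HADHA and HADHB for beta-oxidation, and PDK4 for the choice of fuel. Of these 10 genes, 9 were paired with an identifier among the 25880 genes of the deposited table, while CD36 was not paired with one and was not analysed here. Longissimus lumborum muscle was sequenced from 5 Alentejano (AL) and 5 Bísaro (BI) pigs, which are Portuguese local breeds. All animals were purebred castrated males reared outdoors on commercial diets offered close to appetite, and the labels give a carcass weight of 150 kg for each. The paper instead gives about 150 kg as the live weight at slaughter. No treatment, transgene or deletion was involved, the age of the pigs is not given in the labels, and each library came from 1 pig, so that the comparison of the breeds rests on 5 animals of each.

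Long-chain fatty acids reach muscle bound to albumin or inside lipoproteins, from which lipoprotein lipase (LPL) frees them at the capillary wall. CD36 helps them cross the cell membrane and FABP3 carries them through the cytosol. CPT1B and CPT2 move the acyl chain into the mitochondrion by way of carnitine. There ACADVL and ACADM begin the cycle that shortens very long and medium chains, and the trifunctional protein, built from HADHA and HADHB subunits, carries out its later steps on long chains. PDK4 phosphorylates and so restrains pyruvate dehydrogenase, which limits the use of glucose-derived carbon when fatty acids are burned.

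Reads counted on genes ran from 2298045 to 3343194 per pig. The paper reports far more sequenced reads per sample, nearly all of them aligned. Only a small part was thus counted on genes, and why the rest was not counted was not tested. In every pig the 10 genes with the highest mean held between 48.5% and 60.3% of the counted reads. Skeletal muscle was recognisable by ACTA1, the skeletal actin, with a mean normalised read count (reads divided by the size factor of the pig) of 12496. Other genes stood higher, among them SPSB2 with a mean of 88611 and mitochondrial ND6 with 52623. The paper names RABEP2, SEPTIN1, CTSF and SPSB2 among its most expressed genes. Markers of other cell types were low in sum in most lists: the 11 adipocyte markers found in the table reached 35.6 to 72.5 in AL and 44.1 to 73.3 in BI, with CFD highest at a mean of 16.7, ADIPOQ at 0.284 and LEP seen in 1 read. The 8 endothelial markers summed to 4.32 to 19.5 in AL and 3.30 to 15.7 in BI, with PECAM1 highest at 3.33, and the 6 fibroblast markers to 14.2 to 112 and 19.0 to 43.3, with COL1A1 highest at 21.6. The 8 leukocyte and blood markers summed to 258 to 395 in AL and 267 to 411 in BI, most of it from CSF1R at a mean of 276, while LYZ was at 0 in all pigs. PTPRC (mean 0.316) and CD163 (0.0930) were near 0, and CSF1R lies 110 bases from HMGXB3 (mean 137) on the other strand. The paper left ADIPOQ and LEP out of its sequencing analysis for low reads and measured both by qPCR. By qPCR it reports ADIPOQ as higher in AL and LEP as tending to be higher in AL. In such bulk tissue, fewer cells of a type and less RNA per cell cannot be told apart.

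The strand of the counted reads touches every gene count given here, the marker sums included. In the mitochondrial genome ND6 is the only protein-coding gene transcribed from the light strand, and its mean was 52623 (24966 to 81216 over the 10 pigs), against means of 15.6 to 2556 for the 12 other coding genes. The libraries were stranded, and the strand setting of the counting is not given in the sources used here. Some genes that lie opposite genes of muscle metabolism also had high counts, as given with the neighbours. Over the 61 opposite-strand pairs with counts, the neighbour was the higher in 31 and the lower in 30. Which gene of a pair is called the neighbour depends on which was listed, so this split cannot decide which strand was counted. Whether the strand opposite to the transcripts was counted was not tested. The values are therefore given as counts that the table assigns to a gene identifier, not as the mRNA level of that gene, and how many of those reads came from the gene's own strand was not tested.

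Along the chromosome, HADHA and HADHB stand head to head on Sscrofa11.1, HADHB at chr3:112712894-112753121 on the minus strand and HADHA at chr3:112753343-112797627 on the plus strand. Only 221 bases separate their annotated starts, and their counts were far apart, so this stretch is shown first, read along the plus strand from HADHB to HADHA (chr3:112753122-112753342, 62.9% G and C). CPT2 lies on the minus strand at chr6:159038129-159061327. The 250 bases before its start (chr6:159061328-159061577, minus strand) are shown because CPT2 was the 1 gene of the 10 whose promoter window held the letters AGGTCA, the core that nuclear receptors such as the PPARs bind. Capitals mark CCGGAA, the core bound by ETS factors, on either strand in the first sequence and AGGTCA in the second.
HADHB to HADHA: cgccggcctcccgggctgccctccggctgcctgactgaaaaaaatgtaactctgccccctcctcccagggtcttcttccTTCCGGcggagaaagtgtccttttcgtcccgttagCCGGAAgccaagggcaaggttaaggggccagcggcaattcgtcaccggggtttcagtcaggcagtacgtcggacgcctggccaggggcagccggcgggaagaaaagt
upstream of CPT2: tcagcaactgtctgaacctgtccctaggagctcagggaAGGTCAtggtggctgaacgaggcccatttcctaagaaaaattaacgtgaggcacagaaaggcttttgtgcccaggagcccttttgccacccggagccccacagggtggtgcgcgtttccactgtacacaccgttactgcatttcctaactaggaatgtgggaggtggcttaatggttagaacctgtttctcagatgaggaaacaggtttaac

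In windows from 250 bases before to 50 bases after each annotated start, AGGTCA on either strand was present in 14.1% of 19501 RefSeq promoters. A tandem pair of it with 1 base between, the usual PPAR arrangement, was present in 0.0308% of them and in 0 of the 10 genes. The CCGGAA core occurred in 17.8% of all windows, and among the 10 genes in HADHA and HADHB, whose windows share the stretch printed above. A CCAAT box was found in 2 of the 10 genes, LPL and PDK4, against 35.4% of all windows, and the GC box GGGCGG in 3, ACADVL, ACADM and PDK4, against 50.6%. These matches are descriptions of letters and do not show that a factor was bound.

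By count, the 9 genes ran from a high class to a low one, with PDK4 between. HADHA had a mean of 411, ACADVL of 272 and FABP3 of 267, higher than 95.9% to 96.8% of the 14681 genes with a read. PDK4 had a mean of 13.2. The other 5 genes, LPL, ACADM, HADHB, CPT1B and CPT2, had means from 5.49 down to 2.47, and 231 reads in all over the 10 pigs. Per kilobase of RefSeq exon, FABP3 (598 ± 133, SD, n = 10 pigs) stood above HADHA (152 ± 45.2) and HADHA above ACADVL (57.6 ± 6.86), each in 10 of 10 pigs with no overlap of the ranges. ACADVL was in turn above PDK4 (3.71 ± 2.55) in 10 of 10 pigs. From PDK4 downwards the levels per kilobase of neighbours in the order overlapped: ACADM 2.69 ± 1.61, HADHB 1.99 ± 1.14, LPL 1.83 ± 1.17, CPT1B 1.63 ± 0.900 and CPT2 0.820 ± 0.749. The RefSeq exons of FABP3 span only 447 bases, so its level per kilobase depends on that short model.

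**Figure D1:**
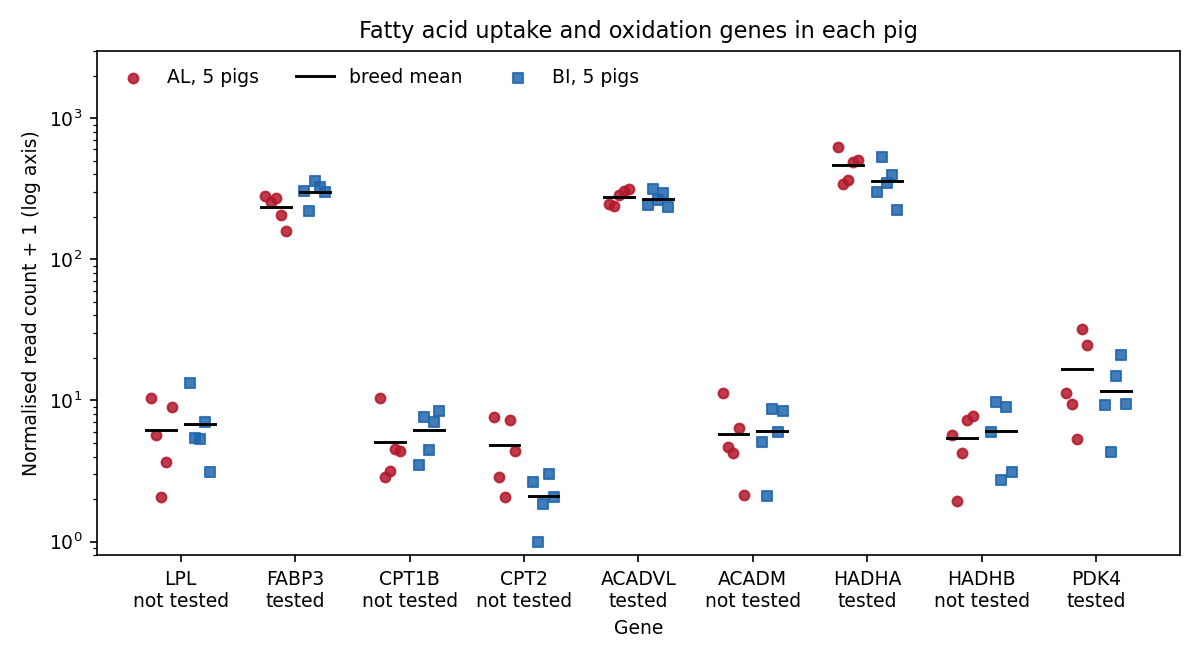
Normalised read count plus 1 on a log axis for the 9 genes found in the table, with AL pigs as circles, BI pigs as squares and a bar for each breed mean (n = 5 each). FABP3, ACADVL and HADHA lie between 158 and 628 before the 1 is added, PDK4 between 3.30 and 31.1, and the other genes at or under 12.4, and AL and BI pigs overlap for every gene.

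To ask whether the breeds differ in these genes, limma was run on the 3315 genes whose normalised counts summed to 50 or more in AL and also in BI. It used log2 of the count plus 1, and p-values were adjusted over all of them (Benjamini-Hochberg). Of the 9 genes, FABP3, ACADVL, HADHA and PDK4 met that minimum. None of the 4 passed an adjusted p of 0.05, where 0.0302% of all tested genes did, the single gene being INTS11, higher in BI (named after its values were seen). Likewise 0 of the 4 had an unadjusted p under 0.05, against 7.21% of all tested genes, and 0 of the 4 had breeds that did not overlap, against 1.39%. DESeq2 on the reads recovered from the table passed 0.875% of all genes and 0 of the 3 to which it gave an adjusted p (none for PDK4), and edgeR and limma-voom passed 0 of the 4.

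FABP3 (chr6:87943003-87950708, minus strand), the fatty acid carrier of the muscle cytosol, had the lowest unadjusted p of the 4. Its normalised counts in AL44, AL46, AL49, AL52 and AL63 were 279, 255, 272, 205 and 158. The counts in BI25, BI34, BI36, BI37 and BI42 were 306, 218, 355, 325 and 298. Thus 4 of 5 BI pigs lay above every AL pig, and BI34 lay among the AL pigs. Means were 234 ± 51.2 in AL and 300.3 ± 51.0 in BI (SD, n = 5 each). The log2 fold change, AL minus BI, was -0.37 (95% interval -0.78 to 0.03, limma adjusted p = 0.742). Permuting the pigs in all possible ways (exact two-sided permutation test) gave p = 0.0952, or 0.783 adjusted over all tested genes, where the smallest p it can give is 0.00794. Without BI34 the difference was -0.48 with an unadjusted limma p of 0.0217, and without AL44 it was -0.44 with 0.0397, neither of which passed after adjustment (limma adjusted p = 0.439 and 0.357). Without AL63, the lowest AL pig, it shrank to -0.24 with an unadjusted limma p of 0.194 (adjusted p = 0.992).

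LPL (chr14:4104761-4134964, plus strand), the other uptake gene with values, was seen in 26 reads from AL and 32 from BI. Its normalised counts ran from 1.08 to 9.44 in AL and from 2.11 to 12.4 in BI. The pooled rate in AL was 0.838 of that in BI, with an exact interval from counting alone of 0.479 to 1.45. That interval includes equal levels. It leaves out the spread among pigs, which was 2.38 times that of counting in AL and 2.81 times in BI.

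Both carnitine palmitoyltransferases were barely counted. For CPT1B (chr5:155552-163536, plus strand), the muscle enzyme of the outer membrane, 21 reads came from AL and 26 from BI. AL44 alone gave 10 of the AL reads, and the other AL pigs lay between 1.86 and 3.56 normalised counts. The ratio of AL to BI was 0.833 (counting interval 0.445 to 1.54).

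For CPT2, the enzyme of the inner membrane, counts in AL44, AL46, AL49, AL52 and AL63 were 6.61, 1.86, 1.08, 6.23 and 3.39. Those in BI25, BI34, BI36, BI37 and BI42 were 1.65, 0, 0.862, 2.004 and 1.06. Accordingly 3 of 5 AL pigs lay above every BI pig, and the other AL pigs lay within the BI range. These values rest on 20 reads in AL and 6 in BI, a ratio of 3.44 with a counting interval of 1.33 to 10.5. As for LPL, that interval leaves out the spread among pigs, which was 1.64 times that of counting in AL and 0.508 times in BI. AL44 and AL52 gave 7 reads each. In BI34 no read was counted, which allows up to 3 reads. CPT2 gave an exact permutation p of 0.0476 without adjustment, the lowest of the 5 genes under the minimum, and with no minimum on counts its limma adjusted p over 14681 genes was 0.776. Its log2 difference depended on the constant added to the counts, 1.11 with 1, 1.94 with 0.1 and 0.30 with 10.

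ACADVL (chr12:52573521-52581755, plus strand), the acyl-CoA dehydrogenase for very long chains, was the steadiest of the genes. The AL pigs had counts of 244, 238, 285, 303 and 312 in the order of the pigs above. The BI pigs had counts of 239.7, 312, 260.3, 295 and 233. The breeds covered nearly the same range, and the highest pig was only 1.34 times the lowest. Means of 276 ± 34.0 in AL and 268 ± 34.2 in BI (SD, n = 5 each) gave a log2 fold change of 0.04 (95% interval -0.27 to 0.36, limma adjusted p = 0.964; exact permutation p = 0.730).

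HADHA, the alpha subunit of the trifunctional protein, had the highest counts. Values in the AL pigs, in the same order, were 628, 341, 361, 487 and 499.9. Values in the BI pigs were 299.8, 531, 347, 394 and 221. AL44 was above every BI pig and BI25 and BI42 were below every AL pig, while the rest overlapped. The means were 463 ± 116 in AL and 358 ± 116 in BI (SD, n = 5 each), a log2 fold change of 0.39 (95% interval -0.10 to 0.89, limma adjusted p = 0.782; exact permutation p = 0.190). Leaving out BI34, the highest BI pig, raised it to 0.55 with an unadjusted limma p of 0.0235 (adjusted p = 0.454). Leaving out BI42, the lowest BI pig, lowered it to 0.23 with an unadjusted limma p of 0.299 (adjusted p = 0.994), and without AL44 it was 0.28 (limma adjusted p = 0.632).

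HADHB encodes the beta subunit of the same protein, yet its mean was 4.75, and HADHA was 49.1 to 367 times as high in each of the 10 pigs. HADHB ranged from 0.930 to 6.79 in AL and from 1.72 to 8.81 in BI, on 22 and 26 reads (ratio 0.872, counting interval 0.471 to 1.60). ACADM (chr6:137541481-137575544, minus strand), the dehydrogenase for medium chains, ranged from 1.13 to 10.4 in AL and from 1.10 to 7.76 in BI, on 25 and 27 reads (ratio 0.954, counting interval 0.531 to 1.71). For both genes the interval includes equal levels.

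PDK4 (chr9:75246956-75260134, minus strand) varied most among the tested genes, with its highest pig 9.42 times its lowest. AL pigs had counts of 10.4, 8.37, 4.32, 31.1 and 23.8 in the order above. BI pigs had counts of 8.24, 3.30, 13.8, 20.04 and 8.45. AL52 and AL63 were above every BI pig and the other AL pigs lay inside the BI range. Means were 15.6 ± 11.3 in AL and 10.8 ± 6.38 in BI (SD, n = 5 each). The log2 fold change of 0.39 had a 95% interval from -0.72 to 1.50 (limma adjusted p = 0.926; exact permutation p = 0.540). Single pigs moved this value widely, to 0.07 without BI34, 0.08 without AL52, 0.17 without AL63, 0.65 without BI37 and 0.73 without AL49.

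Over the 4 tested genes the median log2 fold change was 0.22, with 3 higher in AL and 1 higher in BI by sign, beside a median of -0.03 over all 3315 genes. The median was 0.043 without AL52, and 0.045 where both breed means had to reach 50. ACADVL changed sign without AL63 or BI42, so the count of 3 against 1 rests on those pigs. Over all 9 genes with values, tested or not, the median was -0.13, with 4 higher in AL by sign and 5 higher in BI. The plot of breed differences shows how wide each interval is against these medians.

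**Figure D2:**
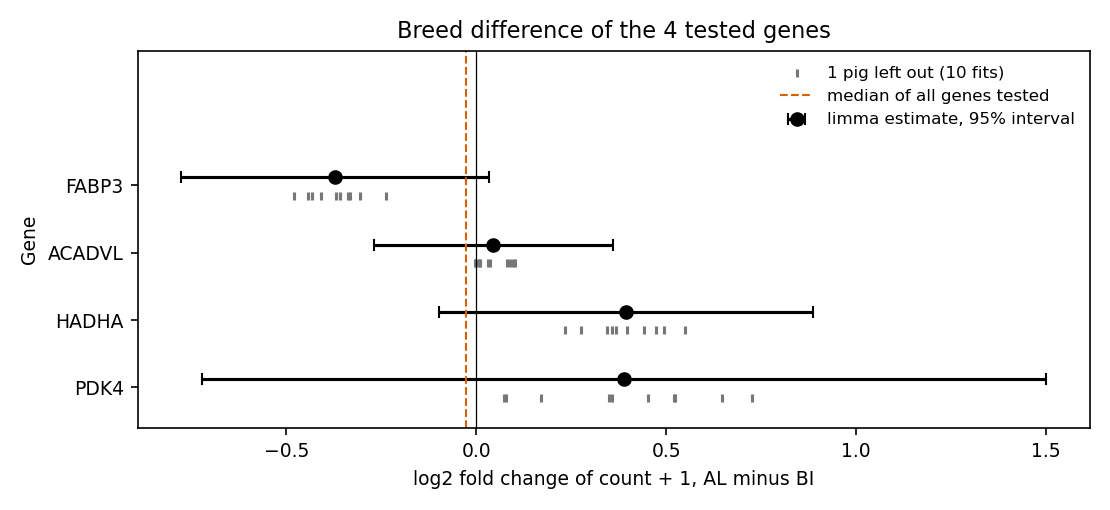
Log2 fold change of the normalised count plus 1, AL minus BI, for the 4 tested genes, with the limma estimate and its 95% interval (point and bar), the 10 fits that each leave out 1 pig (ticks) and the median of all tested genes (dashed line at -0.03). All 4 intervals include 0, and that of PDK4, from -0.72 to 1.50, is the widest.

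Spread within a breed was set against counting error by dividing the variance among pigs by the variance that counting alone gives. HADHA varied 30.2 times as much as counting in AL and 35.6 times in BI, FABP3 10.6 and 8.40 times, and PDK4 8.44 and 3.66 times. ACADVL varied 4.30 and 4.32 times as much. The 5 genes under the minimum varied between 0.508 and 2.81 times, so that counting error was a large part of their spread.

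Whether the genes rose and fell together was examined over the 10 pigs for the 6 pairs among FABP3, ACADVL, HADHA and PDK4. ACADVL and HADHA had the highest Pearson's r, 0.57 (permutation p = 0.0872, 0.255 adjusted over 6 pairs), with Spearman's rho of 0.72 (permutation p = 0.0232, 0.139 adjusted). It was 0.35 without the 2 pigs farthest from the median of ACADVL and 0.57 after the breed means were removed. FABP3 ran the other way against ACADVL, with r = -0.60 and rho = -0.53 (permutation p = 0.0640 and 0.124, adjusted 0.255 and 0.337), falling to -0.30 without 2 pigs. The remaining pairs had permutation p of 0.128 to 0.603 for r and 0.169 to 0.811 for rho. FABP3 and PDK4 moved from r = -0.23 to 0.81 when 2 pigs were left out, so that this relation rests on those pigs. No pair passed after adjustment.

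Opposite-strand neighbours within 5 kb were listed because of the strand values given above. ZCCHC17, a zinc finger gene on the plus strand at chr6:87879727-87942857, ends 145 bases from the end of FABP3, and its mean of 1125 was higher than that of FABP3 in 10 of 10 pigs, 1.88 to 13.7 times. DVL2, a Wnt signalling gene on the minus strand at chr12:52581687-52590266, overlaps the end of ACADVL by 69 exon bases, and its mean of 1227 was 3.78 to 7.06 times that of ACADVL over the pigs. DLG4 overlaps the start of ACADVL on the minus strand and had a mean of 1.17. GAREM2 ends 1722 bases beyond HADHA and had a mean of 6.37, and ASB4, within which PDK4 lies on the other strand, had a mean of 0.480.

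Over all the gene lists used here, 61 such pairs had counts for both genes (HADHA and HADHB were counted from each side), and the neighbour was the higher in 31 of them and the lower in 30. In pairs whose ends face each other it was the higher in 22 and the lower in 17. In pairs that stand head to head it was the higher in 9 and the lower in 13. The neighbour was more than 100 times as high in 9 pairs. Among these, SPSB2 had a mean of 88611 beside the glycolytic enzyme TPI1 at 223, and PSMD13 one of 7100 beside the mitochondrial deacetylase SIRT3 at 1.08. MAP3K15 had 1854 beside PDHA1, the pyruvate dehydrogenase subunit, at 9.26, and RIBC1 had 1322 beside HSD17B10, a beta-oxidation enzyme, at 1.05. Other pairs ran the opposite way, some of them also by more than 100 times. Examples are PGAM2 at 1871 beside VOPP1 at 3.54 and PFKM at 736 beside SENP1 at 3.18. GAPDH had 4003 beside IFFO1 at 41.7, and DGAT1 had 2510 beside HSF1 at 119. These pairs were chosen as examples after their values were seen.

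Both high neighbours were in the same fit, and neither passed the test. DVL2 had 1359 ± 319 in AL and 1095 ± 137 in BI (SD, n = 5 each), a log2 fold change of 0.29 (limma adjusted p = 0.780). ZCCHC17 had 1471 ± 1329 in AL and 779 ± 206 in BI, a log2 fold change of 0.61 (limma adjusted p = 0.803). AL44 gave 3825 of ZCCHC17 and no other pig more than 1082, and without AL44 the fold change was 0.18 (limma adjusted p = 0.749). Because DVL2 and ACADVL share exon bases, reads in that stretch could be told apart only by strand.

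**Figure D3:**
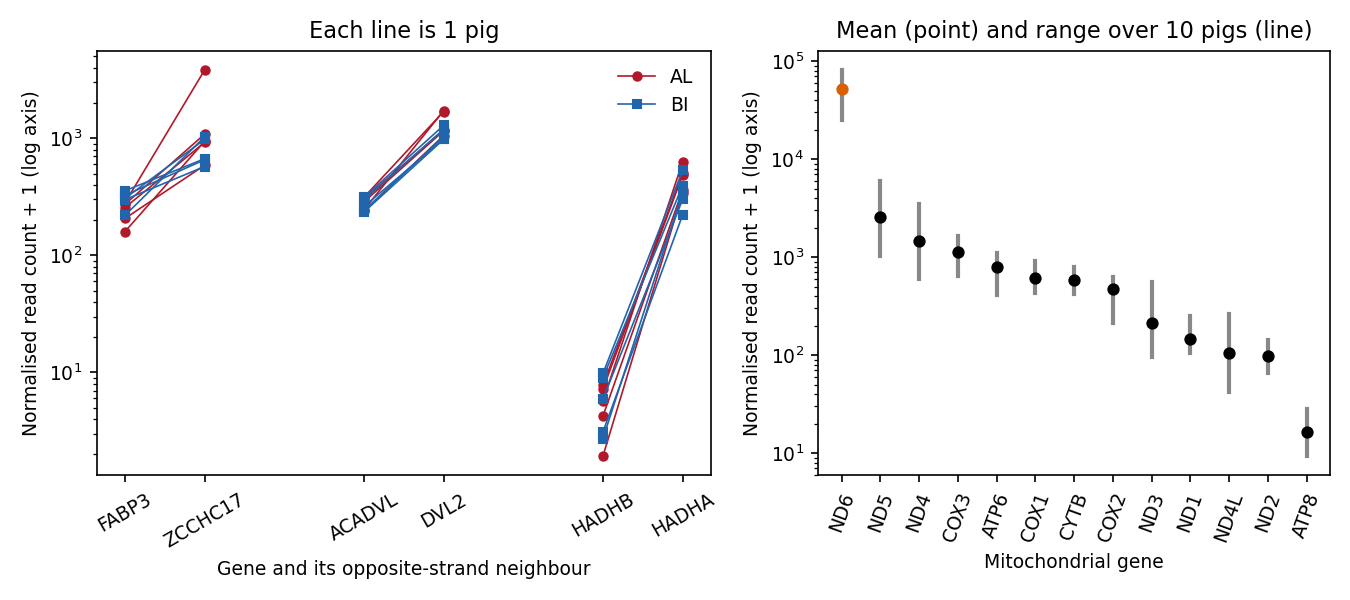
Left, normalised read count plus 1 on a log axis for FABP3, ACADVL and HADHB, each joined by 1 line per pig to its opposite-strand neighbour (ZCCHC17, DVL2 and HADHA). Right, the 13 mitochondrial coding genes, with the mean and the range over the 10 pigs. In all 10 pigs the neighbour drawn lies above, by 49.1 to 367 times for HADHA over HADHB, and ND6 lies at 52623 above every other mitochondrial gene. The neighbours DLG4 (of ACADVL), GAREM2 (of HADHA) and ASB4 (of PDK4) lay below their genes in all 10 pigs and are not drawn.

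The wider pathway was read from 7 lists with 86 genes besides those above, written from general knowledge. Of these, 82 were in the table and 19 met the minimum, 9 of them higher in AL and 10 higher in BI by sign, with a median log2 fold change of -0.02. None passed an adjusted p of 0.05, where 0.0302% of all 3315 tested genes did. Against 7.21% of all tested genes, 1 of the 19 had an unadjusted limma p under 0.05. This was MGLL, which splits monoacylglycerols in the last step of lipolysis, with 14.1 ± 5.03 in AL and 25.0 ± 8.24 in BI (SD, n = 5 each; log2 fold change -0.79, limma adjusted p = 0.576). The lipid droplet and lipolysis list, to which it belongs, had 2 genes higher in AL and 3 in BI by sign.

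In the uptake and activation list 2 of 13 genes were tested, and LMF1, which matures lipases, had the lower p (log2 fold change -0.44, limma adjusted p = 0.838). CRAT, a carnitine acetyltransferase, was the 1 gene tested of 7 in the carnitine shuttle list (0.33, limma adjusted p = 0.822). The electron acceptor ETFDH, with a mean of 277, was the 1 gene tested of 16 in the beta-oxidation list and differed by -0.02 (limma adjusted p = 0.977). Among the peroxisomal genes 2 of 7 were tested, with ACAA1, a thiolase, at 0.48 (limma adjusted p = 0.824).

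For the fuel switch, PDHB, a subunit of the pyruvate dehydrogenase that PDK4 restrains, was the 1 gene tested of 12, at -0.17 (limma adjusted p = 0.881). The list of regulators had 7 of 20 genes tested, 3 higher in AL and 4 in BI by sign, and PRKAG3, a muscle subunit of the energy sensor AMPK, had the lowest p (-0.60, limma adjusted p = 0.746). PPARG had no read in any pig and PPARA a mean of 3.57. ACSL6, CPT1C and DGAT2 were also at 0 in all pigs.

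Genes of other energy routes were set beside these. In the citrate cycle list 9 of 17 genes were tested, 3 higher in AL and 6 in BI by sign (median log2 fold change -0.10), and in the glycolysis list 11 of 14, 1 higher in AL and 10 in BI (median -0.11). None of either list passed the test. The slow fibre list, of genes used by oxidative fibres, had 6 of 10 genes paired with an identifier. All 6 were tested and were higher in AL by sign, from 0.58 to 0.80. MYH7, CASQ2, MYOZ2 and TPM3 were not paired. For MYH7 the paper reports a trend towards AL in its sequencing and a difference the same way by qPCR. TNNT1, slow troponin T, was highest in counts, with 387 ± 122 in AL and 229 ± 52.9 in BI (SD, n = 5 each; log2 fold change 0.73, limma adjusted p = 0.337). The summed slow fibre level was 761 to 1449 in AL and 447 to 797 in BI. None of the 6 passed after adjustment, although 5 had an unadjusted limma p under 0.05, against 7.21% of all tested genes. Of 14 skeletal muscle markers listed, 7 were paired with an identifier and tested, and all 7 were lower in AL by sign (median -0.26). The part of fibre type in the values of the fatty acid genes was not tested.

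**Figure D4:**
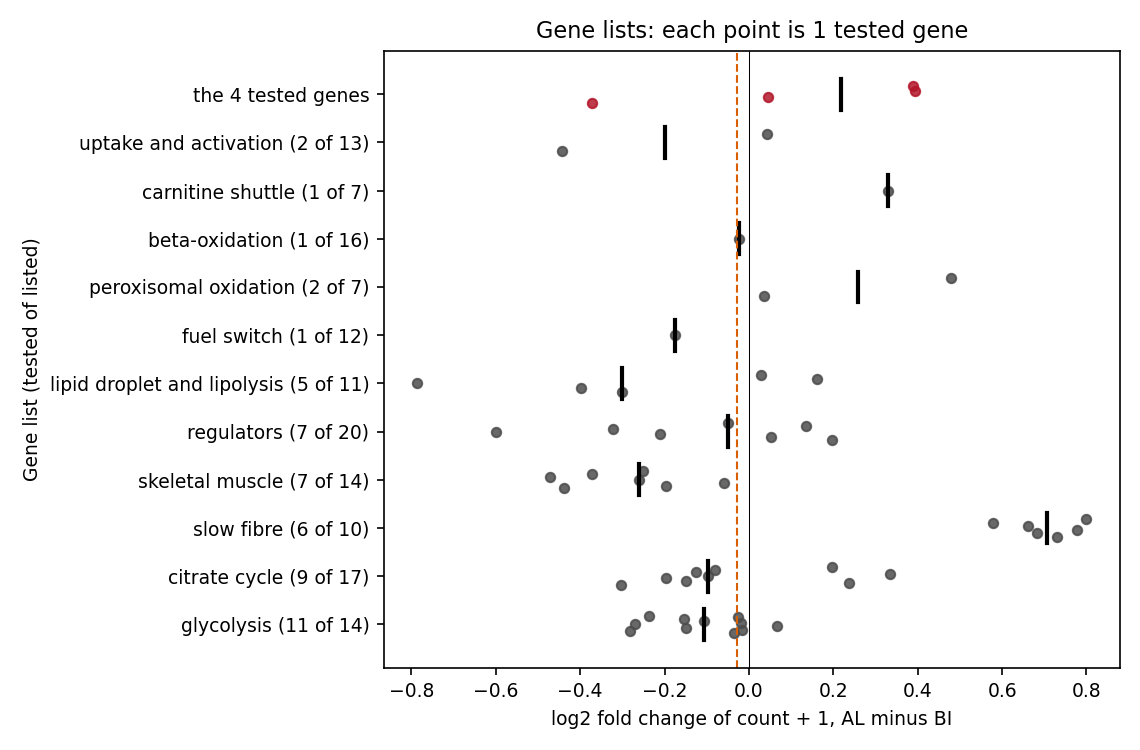
Log2 fold change of the normalised count plus 1, AL minus BI, for every tested gene of each list (points), with the list median (bar) and the median of all 3315 tested genes (dashed line at -0.03). The 4 tested fatty acid genes spread from -0.37 to 0.39, the slow fibre genes lie from 0.58 to 0.80, and no point passed the adjusted test.

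The genes whose pattern over the 10 pigs was most like that of each gene were found by Pearson's r of log2 counts against the tested genes with a symbol, 2 for each. TSR1 (r = 0.97) and SLX4 (0.94) were most like FABP3, INPP5E (0.93) and CIAPIN1 (0.93) most like ACADVL, WDR7 (0.91) and TIMM8B (0.87) most like HADHA, and HNRNPUL2 (0.86) and RFC2 (0.83) most like PDK4. For the genes under the minimum these were DDX51 and DERL3 for LPL (0.80 each), PPP5C (0.96) and FBXO9 (0.88) for CPT1B, NMRK2 (0.89) and METTL24 (0.88) for CPT2, CEP295 (0.97) and CHAD (0.95) for ACADM, and TMEM120A and PASK for HADHB (0.85 each). These are the highest of 2773 or 2774 values over 10 pigs that share libraries and scaling, and are given as a description. None of these genes was in the pathway lists.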

How the data were processed

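Muscle RNA of 5 AL and 5 BI pigs was sequenced with 1 library per pig. Per the paper's methods and the labels, reads trimmed by Trim Galore 0.5.0 were mapped by HISAT2 2.1.0 on Sscrofa11.1, and HTSeq 0.11.1 assigned them to genes of Ensembl release 94. What the authors deposited is a normalised signal, the count of each gene after division by the pig's DESeq2 size factor. The fold changes, p-values and related scores deposited beside them were not used, and no column of a pig was left unmapped. Breeds were taken from the sample labels.

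Dividing each value by the smallest one above 0 in its pig gave whole reads for 100% of the values (tolerance 0.001), on average 2.75 M per pig. The counting intervals on read ratios and the floor of 3 reads cover counting error only. The intervals of the limma fold changes also hold the spread among pigs, and all are at the 95% level. Genes summing to 50 or more in AL and also in BI, 1 reading of the study's minimum, went into limma 3.58.1 (R 4.3.3, trend) on log2(value + 1), with no covariate. Fold changes on that scale understate those of low genes. Single genes were also tested by exact permutation over all divisions of the pigs, and pairs of genes with 100000 permutations. The alternatives were pseudocounts of 0.1 and 10, other minimums, other scalings, limma-voom, DESeq2 1.42.0, edgeR 4.0.16 and each pig left out in turn. The tests were checked on simulated data.

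Identifiers were paired with symbols for 14857 genes, and positions, exons and sequence came from RefSeq annotation release 106 of Sscrofa11.1, whose gene borders can differ from those of Ensembl. Named beside the genes chosen are, in each pathway list, the gene with the smallest p and any called, in each marker list the highest gene and defining markers at 0, the opposite-strand neighbours, and the 2 most alike genes of each. The genes and lists were chosen with earlier results of these data known, and the CCAAT, GC box and CCGGAA searches were added after the sequences were seen. No pair of pigs within a breed was as alike as 1 library deposited again would be (chi-square per degree of freedom at least 9.73). The labels give no batch. Python 3.11.15 was used with pandas 2.3.3, numpy 2.4.6 and scipy 1.17.1 for tables and matplotlib 3.10.9 for plots.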

Additional observations from a re-analysis of the deposited data

Results flagged for a closer look

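In 1 of the 18 groups of 5 pigs examined, a pig stood apart from the others by Dixon's ratio, and chance alone flags about 1 group in 20. CPT1B in AL44 had a normalised count of 9.44 (10 reads), while the other AL pigs had 1.86 to 3.56 (at most 4 reads), a ratio of 0.776 against the critical 0.71. Without AL44 the log2 difference of CPT1B, AL minus BI, was -0.68 in place of -0.37.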

How the results depend on the processing

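Under the 21 alternatives run, 0 of the genes tested were called. All 9 were tested only with no minimum, 3 where both breed means had to reach 50, and 4 under the others, where DESeq2 gave PDK4 no adjusted p. Over all tested genes, the 1 called became 0 where both breed means had to reach 50, 40 with no minimum and 29 with DESeq2, and 0 to 18 when 1 pig was left out, with 18 reached without AL44, 4 without BI37 and 0 without BI36. The median log2 fold change of the tested genes, 0.22, was 0.045 where both breed means had to reach 50, which drops PDK4, and 0.043 to 0.30 when 1 pig was left out, the lowest without AL52. ACADVL, at 0.04, turned to -0.0012 without AL63 and -0.0025 without BI42, and ran from -0.0025 to 0.10 when 1 pig was left out. FABP3 (-0.48 to -0.24), HADHA (0.23 to 0.55) and PDK4 (0.07 to 0.73) kept their sign under every alternative that gave them a value, with adjusted p from 0.357 to 0.992, 0.454 to 0.994 and 0.760 to 0.9998. Of the genes under the minimum, LPL, ACADM and HADHB changed sign under 2, 3 and 3 of 14 alternatives, and CPT1B and CPT2 under 0. No paired analysis was run, because the labels give nothing that links a pig of AL with a pig of BI. LPL, CPT1B, CPT2, ACADM and HADHB had at most 15 reads in any pig, which limits their comparison, and the cause of their low counts was not tested.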
